A study of Mus musculus with 3 samples.

Results

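Striated muscle sarcomere genes encode the repeating contractile unit of skeletal and heart muscle. The 40 genes described here were chosen by name, as thick filament, thin filament, Z-disc and giant proteins together with the muscle creatine kinase and the calsequestrins, and were taken by every array probe annotated to them alone. All 40 had a probe, which gave 80 of the 41174 array probes and 40 of the 19532 genes named on the array. Members were chosen with earlier results of these arrays in view, among them the large difference at Myl10, so their differences between genotypes are given as a description without a test.

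RNA came from whole male gonads of mouse embryos at E14.5 and was measured on single-colour Agilent arrays. The control gonads were Nanos2+/- Stra8+/-, the Nanos2-null gonads were Nanos2-/- Stra8+/-, and the gonads null for both genes were labelled Nanos2-/- Stra8-/-. Their columns are called control, Nanos2-null and double-null here. No gonad was wild type at Nanos2, and Stra8 was heterozygous or null in every group. Each group had 1 column of values, whose title names replicates 1 and 2, so there was no replicate error and no p-value could be given. The kind of null allele, the number of embryos and whether neighbouring tissue came along with the gonads are not given in the sources used here. Fewer cells of a type and less RNA per cell cannot be told apart in RNA from whole gonads.

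In a sarcomere, bundles of myosin molecules form the thick filament and actin strands form the thin filament. Calcium binding to troponin shifts tropomyosin on actin and lets the myosin heads pull, while titin spans from the Z-disc to the M-band and nebulin runs along the thin filament. Many of the proteins exist in fast, slow, cardiac and embryonic forms encoded by separate genes. The fetal testis is not a striated muscle tissue, and its known contractile cells, the peritubular myoid cells, are of the smooth muscle kind.

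The deposited values are linear ratios that appear to be relative to each probe's own middle value for most probes, and 51 of the 80 member probes had a middle value within 10% of 1. A deposited value therefore says how a probe compared between columns and nothing of how strongly its gene was expressed. For the same reason neither muscle genes nor markers of the gonad could be judged present or absent. A further 16 member probes lay below 0.7 in all 3 columns, as did 18.3% of all array probes. The negative control probe lay in this range too, at 0.352 in the control column, 0.354 in the Nanos2-null column and 0.454 in the double-null column. No detection call came with the values, so a fold with a low value on its lower side may understate the difference. The Nanos2 probe had deposited values of 87.2, 0.364 and 0.397 in the same order. The Stra8 probe lay at 0.108, 1.13 and 1.34, so it did not check the label of the double-null column, whose identity rests on the label.

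Sarcomere genes were among the probes that stood higher in the control column than without Nanos2. With Nanos2 loss, which is the Nanos2-null column against the control column, 20 of the 80 member probes were lower by 2-fold or more and 1 was higher by that size. Over all array probes these shares were 3.09% lower and 2.51% higher. The lower probes belonged to 11 genes. In 8 of them every probe was at least 2-fold lower, namely Myh2, Myh7, Myl2, Myl10, Mybpc2, Myom1, Tnnc2 and Actn3. Of these, Myl2, Myl10, Mybpc2, Tnnc2 and Actn3 had only 1 probe each. In Myh4, Ttn and Neb some probes were lower by that size. Over all named genes, 4.59% had any probe and 2.77% had every probe at least 2-fold lower. The median log2 difference of the member probes was -0.08 against 0.05 for all array probes, so most members were little changed and the count came from a minority with large differences. Of the 80 member probes, 57 stayed within 2-fold across the 3 columns. Among all array probes, 12.5% differed by 2-fold or more between some pair of columns.

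**Figure D1:**
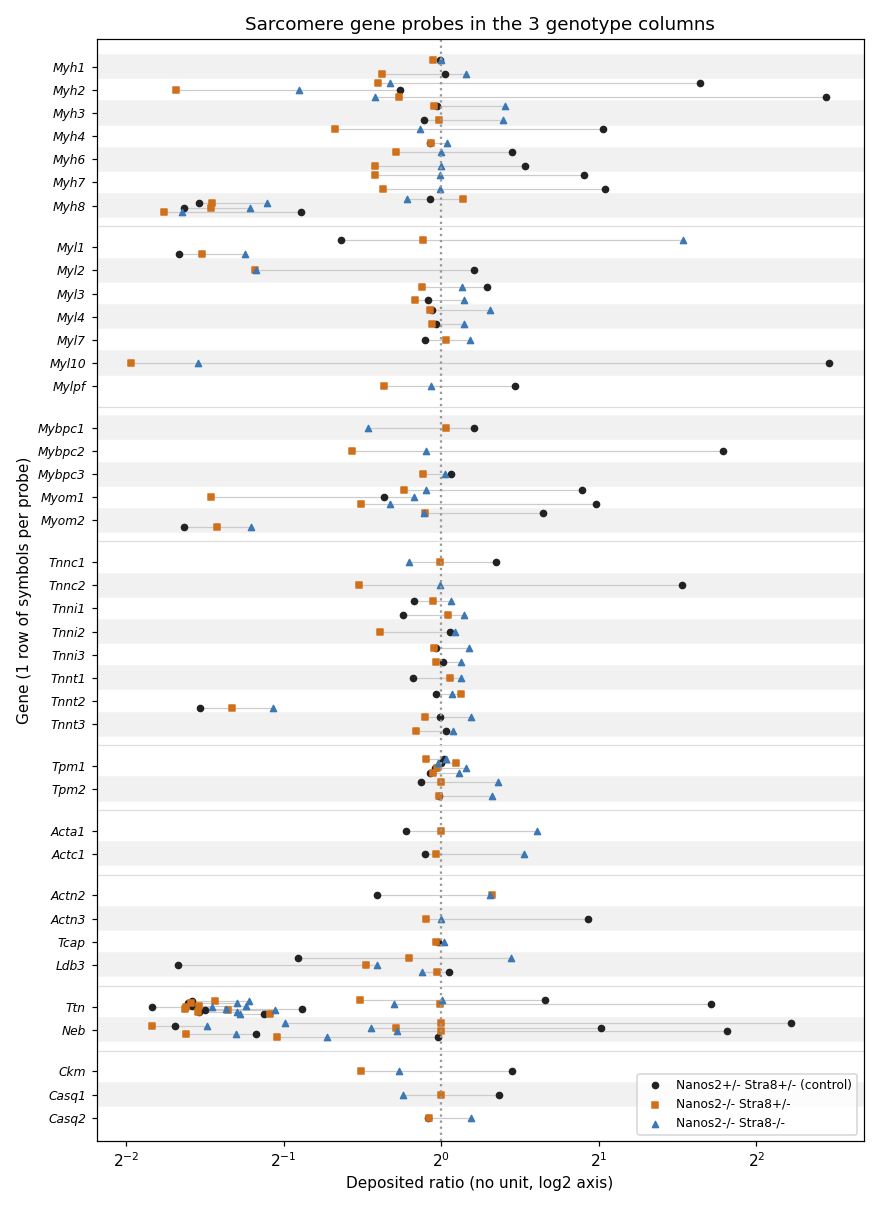
Deposited ratio (no unit, log2 axis) of each of the 80 probes of the 40 genes in the 3 genotype columns, 1 point per column and 1 row of points per probe, with genes ordered by role and the dotted line at 1. The control points lie far to the right for Myl10, at 5.49, for probes of Myh2, Neb, Ttn, Mybpc2 and Tnnc2, and close to the other columns for the tropomyosins and most troponins.

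The share of lower probes varied by role. Over all array probes, 3.09% were at least 2-fold lower with Nanos2 loss and 2.51% were higher. With Nanos2 loss the thick filament genes had 12 of 35 probes at least 2-fold lower, or 34.3%, and the giant proteins 6 of 16, or 37.5%. The thin filament genes had 1 of 20, or 5%, which is near the share of all array probes, and the Z-disc genes 1 of 6 with 1 higher. Ckm, Casq1 and Casq2, with 1 probe each, had 0 of 3. Median log2 differences with Nanos2 loss were -0.41 for the thick filament, 0.02 for the thin filament, 0.35 for the Z-disc and -0.29 for the giant proteins. Probes below 0.7 in all columns made up 10 of the 16 giant protein probes, 5 of 35 for the thick filament and 1 of 20 for the thin filament. The giant protein probes that were at least 2-fold lower were all outside this low range. These shares are a description of probes, several of which read the same gene, and the difference between roles was not tested.

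Myl10, a gene of the regulatory myosin light chain family, had the lowest difference of all members in both null columns. Its single probe lay at 5.49 in the control column, 0.256 in the Nanos2-null column and 0.344 in the double-null column. The control column was thus high and the other columns were both low. The log2 difference was -4.42 with Nanos2 loss, or 21.5-fold lower, and -4.00 in combined loss, which is the double-null column against the control column. With values below the negative control raised to its level, the log2 differences of Myl10 were -3.96 and -3.60.

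The other light chains did not share this size of difference. Myl2, the regulatory light chain of slow muscle and of the heart ventricle, lay at 1.16 in the control column, 0.442 in the Nanos2-null column and 0.444 in the double-null column, 2.62-fold lower with Nanos2 loss. Mylpf, the regulatory light chain of fast muscle, lay at 1.39, 0.778 and 0.955 in that order, with a log2 difference of -0.83. The essential light chains Myl3, of slow and ventricular muscle, and Myl4, of embryonic and atrial muscle, and the atrial regulatory chain Myl7 stayed between -0.41 and 0.13 with Nanos2 loss. Myl1, the essential light chain of fast muscle, went the other way in the double-null column. The probe with the wider range lay at 0.642, 0.922 and 2.89, a log2 difference of 0.52 with Nanos2 loss and 2.17 in combined loss. The other probe lay below 0.7 in all columns, at 0.316, 0.349 and 0.422, so the high value rests on a single probe.

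Among the myosin heavy chains, which carry the motor of the thick filament, Myh2, Myh4 and Myh7 held all the probes at least 2-fold lower with Nanos2 loss. Myh2, the fast IIa form, had 3 probes, and each was highest in the control column. The probe with the widest spread lay at 5.44 in the control column, 0.832 in the Nanos2-null column and 0.749 in the double-null column. Another probe of Myh2 lay at 3.12, 0.758 and 0.797, and the remaining one at 0.833, 0.312 and 0.535. Their log2 differences with Nanos2 loss were -2.71, -2.04 and -1.42, so the probes of Myh2 had the same direction and differed in size. Myh7, the slow and beta cardiac form, lay at 2.05, 0.773 and 0.992 by a first probe and at 1.87, 0.749 and 0.993 by the other. Both probes of Myh7 were thus at least 2-fold lower with Nanos2 loss, at -1.41 and -1.32 on the log2 scale. Myh4, the fast IIb form, was split, with a probe at 2.04, 0.626 and 0.911 and another that stayed at 0.953, 0.956 and 1.02.

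The remaining heavy chains stayed within 2-fold with Nanos2 loss. Myh6, the alpha cardiac form, was nearest to that size, with log2 differences of -0.95 and -0.74. Myh1, the fast IIx form, had -0.40 and -0.05. Myh3, the embryonic form, had 0.10 and -0.02. Myh8, the perinatal form, had 4 probes between -0.87 and 0.21, of which 3 lay below 0.7 in all columns. The genes Myh3, Myh2, Myh1, Myh4 and Myh8 lie in this order on chromosome 11, and Myh6 beside Myh7 on chromosome 14. The lower probes of Myh2 and Myh4 were thus in genes on either side of Myh1, which had none. These genes are near copies of each other, so how far a probe reads its neighbours' RNA is uncertain, and probe sequences were not used here.

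Of the thick filament's accessory proteins, Mybpc2 and Myom1 were lower. Mybpc2, the fast form of myosin-binding protein C, lay at 3.46 in the control column, 0.676 in the Nanos2-null column and 0.934 in the double-null column, 5.12-fold lower with Nanos2 loss. The slow form Mybpc1 and the cardiac form Mybpc3 had log2 differences of -0.18 each. Myom1, myomesin of the M-band, had 3 probes that were all at least 2-fold lower with Nanos2 loss, at log2 differences of -1.49, -1.13 and -1.09. In the double-null column these probes parted. The first and the next stood at -1.31 and -0.99 against the control column, but the last lay at 0.888, against 0.364 in the Nanos2-null column and 0.777 in the control column. Myom2, the related M-protein, had a probe with a log2 difference of -0.75 and another below 0.7 in all columns.

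Thin filament genes were mostly flat, with the exception of Tnnc2. Tnnc2, the calcium-binding troponin C of fast muscle, lay at 2.88 in the control column, 0.696 in the Nanos2-null column and 0.994 in the double-null column, 4.13-fold lower with Nanos2 loss. Its slow and cardiac counterpart Tnnc1 had a log2 difference of -0.35. The inhibitory subunits had log2 differences with Nanos2 loss of 0.28 and 0.12 for the slow form Tnni1, -0.45 for the fast form Tnni2 and -0.05 and -0.01 for the cardiac form Tnni3. The tropomyosin-binding subunits Tnnt1, Tnnt2 and Tnnt3 stayed between -0.19 and 0.24. Tnni2 and Tnnt3, the other subunits of the fast troponin complex, thus did not reach the 2-fold size that Tnnc2 passed.

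Tropomyosins and actins had no probe at 2-fold in any comparison. Tpm1 and Tpm2, which also have smooth muscle and non-muscle forms, had 6 probes between -0.11 and 0.12 with Nanos2 loss. Acta1, the skeletal alpha-actin, lay at 0.856 in the control column, 0.9998 in the Nanos2-null column and 1.52 in the double-null column. Actc1, the cardiac alpha-actin that is also made in embryonic skeletal muscle, lay at 0.930, 0.978 and 1.44. Both actins thus had their highest value in the double-null column, with log2 differences of 0.83 and 0.63 in combined loss, against a median of 0.19 for all array probes. That column held the highest value for 42 of the 80 member probes, or 52.5%, against 57.3% of all array probes. The control column held it for 33, or 41.2%, against 24.0% of all array probes. The negative control was itself highest in the double-null column, at 0.454, which bears on the probes with low values. Without probes below 0.7 in all columns, the double-null column held the highest value for 46.9% of member probes, against 53.4% of all array probes. The control column then held it for 46.9% against 26.5%.

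The Z-disc genes went both ways. Actn3, the alpha-actinin of fast fibres, lay at 1.91 in the control column, 0.933 in the Nanos2-null column and 0.999 in the double-null column, a log2 difference of -1.03 with Nanos2 loss and thus just past the 2-fold size. Actn2, the alpha-actinin of all sarcomeres, lay at 0.755, 1.25 and 1.24, or 0.73 in the opposite direction. Ldb3, a PDZ and LIM domain protein of the Z-disc, was the only member with a probe at least 2-fold higher with Nanos2 loss. That probe of Ldb3 lay at 0.314, 0.718 and 0.753, a log2 difference of 1.19. Another probe of Ldb3 lay at 0.532, 0.868 and 1.36, or 0.71, while its last probe had a difference of -0.07. Tcap, which caps titin at the Z-disc, had a log2 difference of -0.01.

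**Figure D2:**
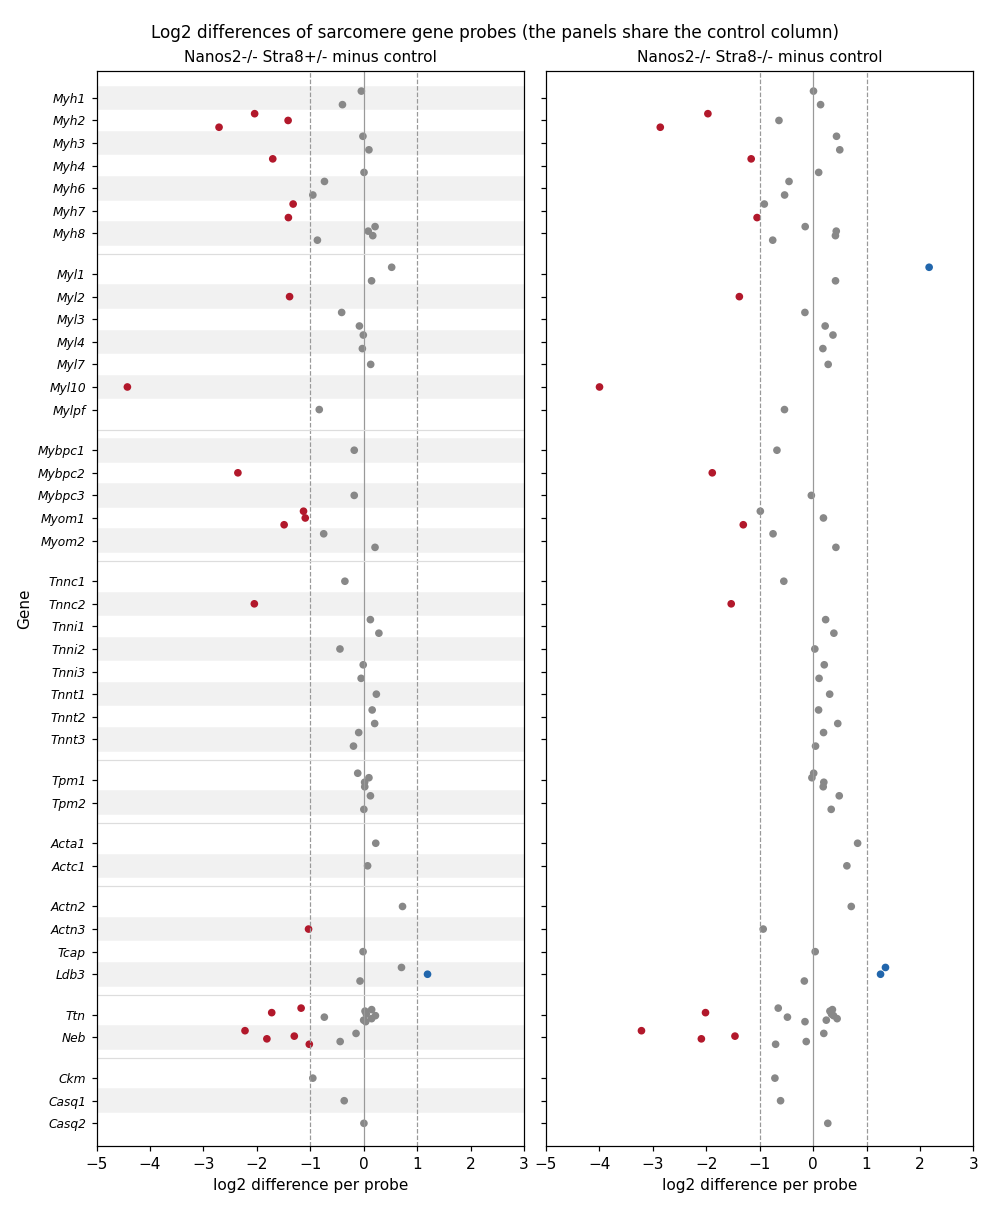
Log2 difference from the control column for each of the 80 probes, in the Nanos2-null column (left) and the double-null column (right), with dashed lines at a 2-fold difference, red points at least 2-fold lower and blue points at least 2-fold higher. On the left 20 points are red and 1 is blue, and on the right 13 are red and 3 are blue, and the panels share the control column.

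The giant proteins showed how far probes of a single gene could differ. Nebulin, encoded by Neb, had 6 probes, of which 4 were at least 2-fold lower with Nanos2 loss and 2 lay below 0.7 in all columns. The probe of Neb with the highest control value lay at 4.67 in the control column, 0.9999 in the Nanos2-null column and 0.503 in the double-null column. A further probe of Neb lay at 3.51, 0.9996 and 0.824, and another at 2.02, 0.821 and 0.733. The last of the 4 lay at 0.984, 0.486 and 0.605. The control column was the highest in each of these 4, and their log2 differences with Nanos2 loss ran from -2.22 to -1.02.

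Titin, encoded by Ttn, had 10 probes, and 8 of them lay below 0.7 in all 3 columns. The other probes of Ttn lay at 3.28, 0.993 and 0.811 and at 1.58, 0.701 and 1.004, which gave log2 differences with Nanos2 loss of -1.72 and -1.17. Among the low probes, 1 had a log2 difference of -0.74 and the rest lay between -0.00 and 0.22. A probe had to be high in some column to leave the low range, so the direction of those that did is no added evidence. Probes of titin read different stretches of a very long transcript with many splice forms, and which exons they read was not analysed here.

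**Figure D3:**
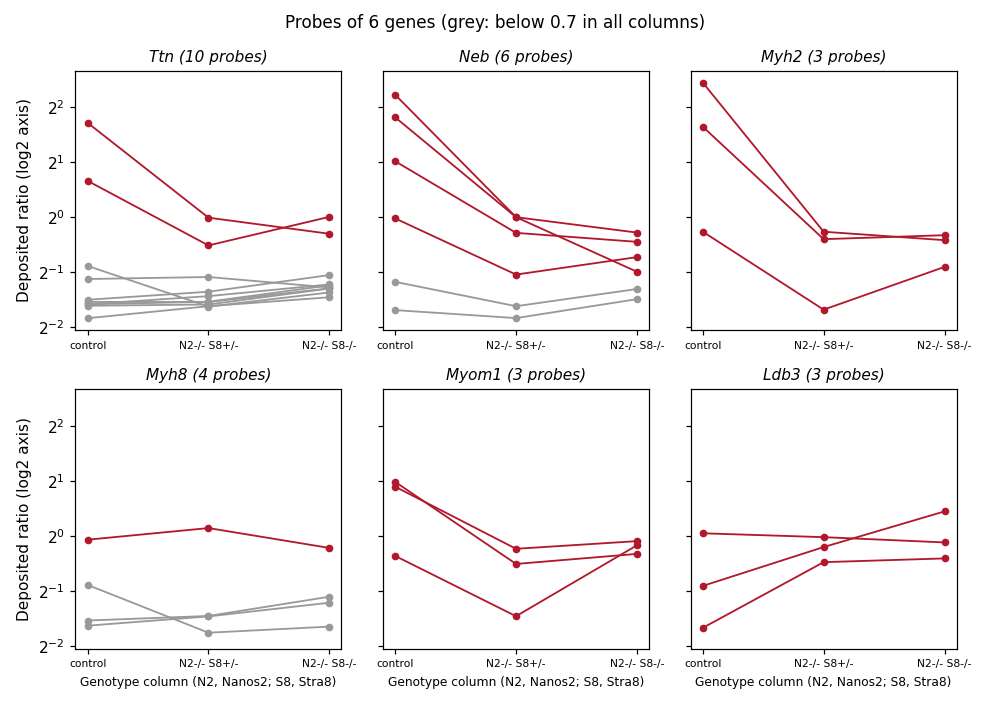
Deposited ratio (log2 axis) in the 3 genotype columns for each probe of Ttn, Neb, Myh2, Myh8, Myom1 and Ldb3, 1 line per probe, with probes below 0.7 in all columns in grey. The 3 probes of Myh2 and the 4 coloured probes of Neb are highest in the control column, 8 of the 10 probes of Ttn are grey, and 2 of the 3 probes of Ldb3 are lowest in the control column.

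Genes outside the filaments had no probe at 2-fold. Ckm, the muscle creatine kinase that buffers ATP at the myofibril, lay at 1.36 in the control column, 0.704 in the Nanos2-null column and 0.830 in the double-null column, a log2 difference of -0.95 with Nanos2 loss. Casq1 and Casq2, the calcium stores of skeletal and cardiac sarcoplasmic reticulum, had log2 differences of -0.37 and 0.00.

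In combined loss, 13 of the 80 member probes were lower by 2-fold or more and 3 were higher, against 4.39% and 4.59% of all array probes. The comparison shares its control column with Nanos2 loss, so its values are given beside those above and not as a repeat. The lower probes belonged to 10 genes. Myl2, Myl10, Mybpc2 and Tnnc2, with 1 probe each, were at least 2-fold lower. Some but not every probe was in Myh2, Myh4, Myh7, Myom1, Ttn and Neb. The log2 differences in combined loss were -1.38 for Myl2, -1.89 for Mybpc2 and -1.53 for Tnnc2. Neb had the lowest value after Myl10, at -3.21, followed by a probe of Myh2 at -2.86. The higher probes were that of Myl1 at 2.17 and those of Ldb3 at 1.35 and 1.26. The median of the member probes was 0.04 and that of all array probes 0.19, so the members lay 0.15 below. By role, 8 of 35 thick filament probes, 1 of 20 thin filament probes, 0 of 6 Z-disc probes and 4 of 16 giant protein probes were at least 2-fold lower.

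Stra8 loss on the Nanos2-null background, the double-null column against the Nanos2-null column, gave few sarcomere probes at 2-fold. None of the 80 member probes was lower by 2-fold or more and 2 were higher, against 2.78% and 2.44% of all array probes. The higher probes were that of Myl1, with a log2 difference of 1.65, and a probe of Myom1 at 1.29, while the other probes of these genes did not reach 2-fold. The lowest difference was that of a probe of Neb, at -0.99. The member median was 0.24 against 0.16 for all array probes. Myl10 and Tnnc2 differed less between the null columns than from the control column, with log2 differences of 0.43 and 0.51. For Myh2 the differences between the null columns were -0.15, 0.07 and 0.78. The last belongs to the probe that stood at -0.64 in combined loss. Its value of 0.312 in the Nanos2-null column lay below the negative control. With values below the negative control raised to its level, its difference between the null columns was 0.59, and that in combined loss stayed at -0.64. Which of these differences of the probe was larger thus depended on that low value.

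Other genes of striated muscle had fewer lower probes. They were listed by what they are known to do in muscle, but also with earlier results of these data known. Of 30 genes listed, such as the intermediate filament gene Des and the calcium release channels, 28 were measured. With Nanos2 loss 1 of their 41 probes was at least 2-fold lower and 2 were higher, against 3.09% and 2.51% of all array probes. The lower one was Myot, which encodes the Z-disc protein myotilin, at 1.24 in the control column, 0.354 in the Nanos2-null column and 0.412 in the double-null column. A probe of Atp2a1, the calcium pump of fast fibres, was 1 of the 2 higher probes, at 0.473, 1.02 and 1.19, a log2 difference of 1.10. The remaining higher probe belonged to a gene of the list that is not named here. Sln, the inhibitor of the pump, lay at 0.540, 0.630 and 2.35. Its log2 difference was 0.22 with Nanos2 loss, so it was not among the higher probes there, and 2.12 in combined loss. The other probe of Atp2a1 had a log2 difference of 0.64. Both Sln and Atp2a1 were thus lowest in the control column, opposite to Myot. The median of this list was 0.05, the same as that of all array probes to 2 decimals. Of its 41 probes, 34.1% lay below 0.7 in all columns, against 20% of the member probes. The difference between this list and the members was not tested.

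The myogenic regulators, which switch on muscle genes in the embryo, were mixed. Of 18 probes for 11 measured genes, 2 were at least 2-fold lower with Nanos2 loss and 0 higher. Among all array probes, 3.09% were lower and 2.51% higher by that size. The median of the list was 0.04. Myf5, a determinant of muscle precursors, lay at 2.26 in the control column, 0.255 in the Nanos2-null column and 1.003 in the double-null column. Pax3, a factor of muscle precursors and neural crest, lay at 0.815, 0.354 and 2.54 by a first probe and at 0.282, 0.310 and 0.382 by the other. The lower probes of Myf5 and Pax3 were thus lowest in the Nanos2-null column and higher in the double-null column, unlike Myl10, which was low in both. Their Nanos2-null values lay at or below the negative control of that column, 0.354. The pattern rests on a single probe of each gene.

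Markers of other cell types that the dissected tissue could hold were counted in the same way. Their part in the sarcomere differences was not tested. Over all array probes, 3.09% were at least 2-fold lower with Nanos2 loss and 2.51% were higher. With Nanos2 loss, 1 of 18 cardiac probes was at least 2-fold lower, that of the natriuretic peptide gene Nppa at 1.68, 0.554 and 0.615, while the other probe of Nppa differed by -0.10 on the log2 scale. The cardiac median was -0.10 as well. None of 23 smooth muscle probes was lower and 1 was higher, with a median of 0.07. Of 20 probes for non-muscle paralogs of the members, 1 was lower, for the non-muscle heavy chain Myh14 with a log2 difference of -1.06, and the median was 0.09. None of the Sertoli, Leydig, germ cell, endothelial, macrophage or erythroid probes was at 2-fold with Nanos2 loss, over 7, 7, 7, 8, 6 and 4 probes. With so few probes, none at 2-fold is near the shares over all array probes. The medians of these lists were 0.02, -0.07, -0.22, 0.10, 0.15 and 0.25 in that order. The germ cell probes were mixed, from -0.89 for Dnd1 to 0.75 for a probe of Dazl, with 4 of the 7 below 0. Of 7 mesonephric probes 3 were at least 2-fold higher, or 42.9%, for Lhx1 and Cdh16, against 2.51% of all array probes. Of 5 neural probes 1 was higher, for Elavl3, and the other probe of Elavl3 had a log2 difference of -0.29. The mesonephric and neural probes at 2-fold thus ran opposite to most sarcomere probes at 2-fold, but both lists were mixed. The neural median was -0.17, with 4 of the 5 probes below 0. The higher probe of Elavl3 lay at 0.288 in the control column, below the negative control of 0.352 there. Of the mesonephric probes 2 were below 0, the lowest that of Pax8 at -0.74.

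**Figure D4:**
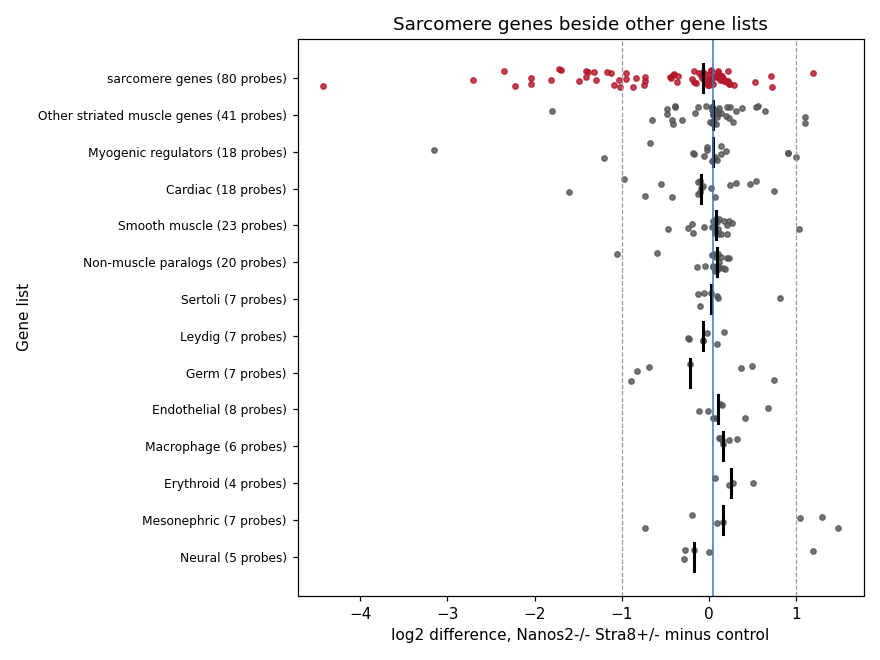
Log2 difference of each probe between the Nanos2-null and control columns for the sarcomere genes (red) and for other gene lists (grey), with black bars at the list medians, a blue line at the median of all array probes, 0.05, and dashed lines at 2-fold. The sarcomere genes have 20 of 80 probes beyond the lower dashed line, and the other striated muscle genes 1 of 41.

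The promoters of members are shown because several members stood high together in the control column. RefSeq promoter windows of the assembly GRCm38.p6, from 250 bases before to 50 after a gene's start, matched 34 of the 40 members with 41 windows. The windows printed belong to Myl10, Myh2, Tnnc2 and Mybpc2, which were lower in the null columns, and to Ldb3 and Acta1, which were not. They lie at chr5:136692896-136693195 on the + strand for Myl10, the most upstream of its 3 windows, at chr11:67170777-67171076 on the + strand for Myh2 and at chr2:164779685-164779984 on the - strand for Tnnc2. Those of the other genes lie at chr7:44524620-44524919 on the - strand for Mybpc2, chr14:34588632-34588931 on the - strand for Ldb3, the more upstream of 2, and chr8:123894726-123895025 on the - strand for Acta1. Each is written in the direction of transcription. Capitals mark matches to the muscle E-box CAGCTG, the TATA box TATAAA on either strand, the MEF2 box and the CArG box, the last of which is bound by serum response factor.
Myl10 promoter: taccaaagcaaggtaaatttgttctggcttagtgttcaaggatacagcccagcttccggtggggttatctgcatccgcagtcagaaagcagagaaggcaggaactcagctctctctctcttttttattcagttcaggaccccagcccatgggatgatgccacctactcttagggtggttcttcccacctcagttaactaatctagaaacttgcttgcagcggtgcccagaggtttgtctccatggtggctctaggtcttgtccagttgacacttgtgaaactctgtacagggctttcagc
Myh2 promoter: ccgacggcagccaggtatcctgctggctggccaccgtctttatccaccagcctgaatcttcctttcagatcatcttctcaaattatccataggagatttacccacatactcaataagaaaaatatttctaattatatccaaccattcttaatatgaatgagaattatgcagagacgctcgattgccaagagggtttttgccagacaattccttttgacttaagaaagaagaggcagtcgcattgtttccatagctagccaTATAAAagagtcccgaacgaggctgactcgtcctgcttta
Tnnc2 promoter: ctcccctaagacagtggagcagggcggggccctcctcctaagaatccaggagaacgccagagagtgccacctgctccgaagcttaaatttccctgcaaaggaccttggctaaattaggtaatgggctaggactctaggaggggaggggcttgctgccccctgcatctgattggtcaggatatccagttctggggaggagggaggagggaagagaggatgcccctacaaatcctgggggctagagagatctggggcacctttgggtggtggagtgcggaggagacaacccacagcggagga
Mybpc2 promoter: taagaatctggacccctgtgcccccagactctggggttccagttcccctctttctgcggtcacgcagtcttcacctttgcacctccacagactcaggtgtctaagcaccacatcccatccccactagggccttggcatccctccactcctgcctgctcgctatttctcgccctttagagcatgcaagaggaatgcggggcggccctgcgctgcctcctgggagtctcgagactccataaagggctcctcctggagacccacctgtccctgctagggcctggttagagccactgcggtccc
Ldb3 promoter: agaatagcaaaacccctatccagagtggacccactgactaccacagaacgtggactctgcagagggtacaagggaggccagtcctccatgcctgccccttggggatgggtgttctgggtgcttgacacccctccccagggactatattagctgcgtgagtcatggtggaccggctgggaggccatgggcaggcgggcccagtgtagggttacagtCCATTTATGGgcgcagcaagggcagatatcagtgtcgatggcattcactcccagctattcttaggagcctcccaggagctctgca
Acta1 promoter: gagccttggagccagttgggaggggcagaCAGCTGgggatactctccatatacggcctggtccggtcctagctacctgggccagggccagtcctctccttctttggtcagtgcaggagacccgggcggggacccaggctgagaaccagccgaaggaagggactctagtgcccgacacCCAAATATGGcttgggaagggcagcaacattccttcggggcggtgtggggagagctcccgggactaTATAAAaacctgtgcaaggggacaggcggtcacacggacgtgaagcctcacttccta

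Of the printed windows, that of Acta1 held an E-box CAGCTG, a CArG box and a TATA box, that of Ldb3 a CArG box, and that of Myh2 a TATA box. The windows of Myl10, Tnnc2 and Mybpc2 held none of these letters. Members with a lower probe whose windows are not printed did hold some. Myh4 and Myom1 held a CArG box, and Myh4 and Myl2 an E-box CAGCTG. Over all members, the CArG box was in 19.5% of the 41 windows against 1.63% of 32851 windows of all genes, and the MEF2 box was in 4.88% against 0.557%. The E-box CAGCTG, which is also a match to the looser CANNTG, was in 34.1% against 16.3%, CANNTG in 82.9% against 72.3%, and the TATA box in 26.8% against 13.6%. The members with a lower probe did not stand out among the members by these counts. Of the 11 genes with a probe at least 2-fold lower with Nanos2 loss, 9 had a window, and 2 of these held a CArG box and 2 an E-box CAGCTG, against 5 and 10 of 25 other members with a window. Among the same 9 and 25 genes, a TATA box was in 3 and 8, a MEF2 box in 1 and 1, and CANNTG in 8 and 22. A match is a run of letters and no evidence that a factor binds there.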

How the data were processed

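Male gonads of mouse embryos were profiled on Agilent single-colour arrays, with Cy3-labelled cRNA per the labels' protocols. Per the submitters' processing notes, spots were quantified in Agilent Feature Extraction 9.5. The authors deposited linear ratios, 1 column per genotype, and neither the scaling of the arrays nor the way replicates 1 and 2 were combined is stated in the sources used here. Of 41267 entries, 93 control spots were left out. The platform annotation gave 1 symbol to 32664 probes, several to 45, and none to 8465, and RefSeq gene identifiers of GRCm38.p6 changed 0 symbols.

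Log2 differences between columns were taken for every probe with no filter on low values, and probes were counted from an absolute log2 difference of 1, or 2-fold, with numpy 2.4.6 and pandas 2.3.3 in Python 3.11.15. The counting was tested on simulated data. Named genes are all members, the targeted genes and, from each companion list, at most 3 with the largest absolute difference. Every measured list was counted by the same steps. The members and lists were chosen with earlier results of these data known. Alternatives were scaling by column medians, quantile normalization, a pseudocount of 0.1, a floor at the negative control, leaving out probes below 0.7 in all columns, and 1 value per gene. The number of arrays limits the precision.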

Additional observations from a re-analysis of the deposited data

How the results depend on the processing

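Without replicate columns no spread between samples could be measured, and no sample could be left out. No paired analysis was possible because each group had a single column and no test was made. Background correction and array position as a block were not run, since scanner files were not analysed here. No member probe at 2-fold changed its direction under another scaling, the pseudocount or the floor at the negative control. With Nanos2 loss, 2, 3, 4 and 0 of the 80 member probes crossed the 2-fold size under scaling by medians, quantile normalization, the pseudocount and the floor, and 3, 3, 1 and 0 did in combined loss. With Nanos2 loss the count of higher probes was 0 instead of 1 with quantile normalization, with the pseudocount, and with 1 value per gene by either rule. Values per gene gave 11 of 40 genes lower from the probe with the highest mean and 9 from the median of probes, where fewer features are counted by construction, against 3.74% and 3.16% of all genes. The member median moved from -0.076 to -0.18 under both gene rules and without the probes low in all columns. Taking the probe with the highest mean and leaving out low probes both favour probes that were high in some column. The counts and medians under these settings are therefore no added evidence, in any of the comparisons. In combined loss the sign of the member median turned from 0.041 to -0.047 after division by column medians, -0.071 with quantile normalization, -0.0088 without the probes low in all columns and -0.15 with the highest probe per gene. The count of higher features there was 1 with the highest probe and that of lower ones 6 with the median of probes. For Stra8 loss on the Nanos2-null background, 1 probe was lower after division by column medians and after quantile normalization. The median there was 0.11 after quantile normalization, and 1 gene was higher with the highest probe and 0 with the median of probes.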
